A study of Mus musculus with 8 samples.

Results

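The genes described here are 42 odorant and pheromone receptor genes, measured by RNA sequencing in R1 cells, a mouse embryonic stem (ES) cell line. They are the protein-coding genes whose GENCODE M21 symbol starts with Olfr, Vmn1r or Vmn2r and which had at least 40 reads summed over all 8 libraries. The rule kept 25 Olfr, 9 Vmn1r and 8 Vmn2r genes of the 484 coding genes of these families in a count table of 36920 genes. Of the other coding receptor genes in the table, 49 had no read, 339 had 1 to 9 reads and 54 had 10 to 39 reads. Just inside the limit were Vmn1r210 with 43 reads and Olfr46 with 41, and just outside it were Olfr788 with 38 and Olfr811 with 37. Olfr1369-ps1, Olfr329-ps and Vmn2r-ps159 carry pseudogene-style symbols but a coding biotype in the annotation, and were kept.

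The D3 and D10 groups (2 libraries each) are labelled as given ML-792, a compound that blocks the enzyme activating SUMO, a small protein that cells attach to other proteins. The D1 and D8 groups (2 libraries each) are labelled control. All were grown in serum with the cytokine LIF. ML-792 was present for 48 h up to D3 and for another 48 h up to D10, at a dose labelled 2.5 mM, so D8 cells had been through the first exposure already. No library without ML-792 is labelled for D3 or D10, so the inhibitor and the 48 h of extra culture cannot be told apart. One D1 library, replicate 2, has D1 in its title and day 0 in its time tag. The labels do not say whether replicates are separate cultures, so the p-values reflect only how far these libraries spread, which may be technical.

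Olfactory receptors (Olfr genes) are G protein-coupled receptors that detect odorants in the nose, where each mature sensory neuron expresses a single allele of a single receptor gene. Vmn1r and Vmn2r genes encode the receptors of the vomeronasal organ, which detects pheromones and related cues. Vmn1r receptors work with the G protein alpha subunit Gnai2 and Vmn2r receptors with Gnao1. In the nose, most receptor genes of a neuron lie silent in heterochromatin, in clusters spread over many chromosomes.

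The libraries held 21040992 to 40835518 reads in genes. Levels are given in CPM (counts scaled to a common library size, with edgeR's TMM factors), and comparisons of levels between genes use CPM per kilobase of annotated exon. D8 replicate 2 stood apart in base composition. Its difference per gene from the average library followed exonic GC content at a Spearman rho of 0.62 (other libraries -0.398 to 0.117). This was computed over 12696 tested genes of any biotype with a mean log2 CPM above 1. The median exonic GC content was 38.75% in the 42 receptor genes (33.79% to 46.58%) and 49.4% in all genes tested. Of 9 ES cell markers, all were tested and the summed level was 4180 and 4216 CPM at D3, 5085 and 5474 CPM at D1, 3171 and 3525 CPM at D10, and 5066 and 5109 CPM at D8. With edgeR, 1 of them (Klf4) was called lower at D3 than at D1, where 5.10% of all genes tested were. At D10, 6 were called lower than at D8, where 7.65% of all genes tested were.

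The receptor genes carried more reads in every ML-792 library than in every control library. The 42 genes summed to 101.8 and 62.5 CPM in the D3 libraries, against 18.9 and 16.8 CPM in the D1 libraries. In the second exposure they summed to 60.05 and 42.7 CPM in the D10 libraries, against 12.4 and 8.36 CPM in the D8 libraries. The mean sum was 82.1 ± 27.8 CPM at D3 and 17.8 ± 1.47 CPM at D1 (SD, n = 2 each), a ratio of 4.61. It was 51.4 ± 12.3 CPM at D10 and 10.39 ± 2.87 CPM at D8 (SD, n = 2 each), a ratio of 4.95. In these bulk samples, more cells that express a receptor gene and more RNA per cell cannot be told apart. All 42 genes had reads in each ML-792 library, whereas 35 and 37 had reads in the D1 libraries and 31 in either D8 library. The rule summed reads over all libraries, and the members had 4215 reads at D3 and 3282 at D10, against 936 at D1 and 640 at D8. Genes thus met the rule mainly through ML-792 libraries, so these counts and ratios describe the 42 genes and support nothing.

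**Figure D1:**
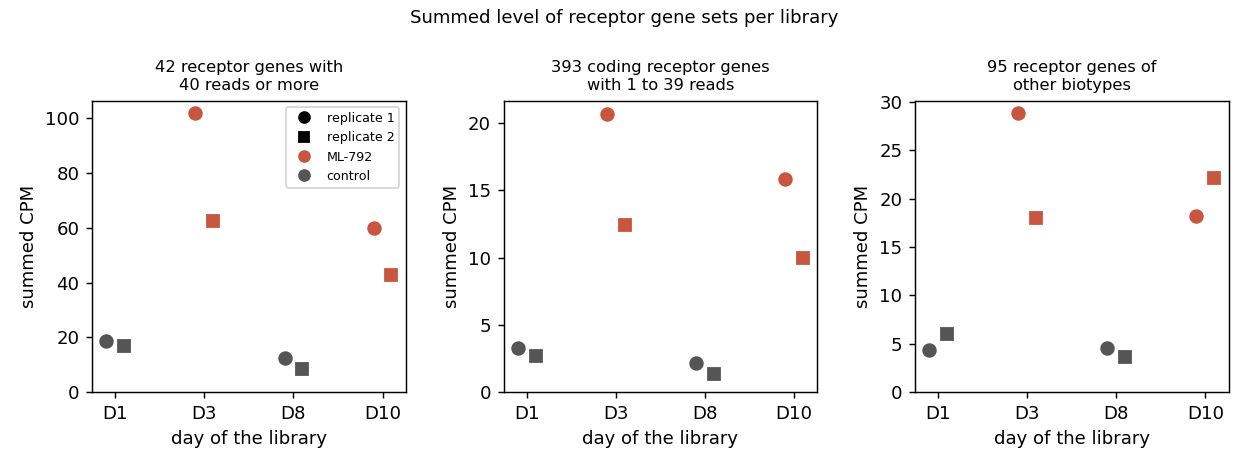
Summed CPM per library (points, linear axis from 0) for the 42 receptor genes, for coding receptor genes with 1 to 39 reads and for receptor genes of other biotypes, with replicate 1 as circles, replicate 2 as squares and ML-792 libraries in red. In the panel of 42 genes the ML-792 libraries lie between 42.7 and 101.8 CPM and the control libraries between 8.36 and 18.9 CPM.

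Receptor genes outside the rule gave sums with the same ordering. The 393 coding receptor genes with 1 to 39 reads summed to 20.7 and 12.4 CPM at D3, against 3.25 and 2.67 CPM at D1. They summed to 15.9 and 9.97 CPM at D10, against 2.16 and 1.38 CPM at D8. With ML-792, 168 to 187 of these genes had a read per library, and 35 to 54 did in control libraries. The 95 rows of these families with other biotypes and at least 1 read summed to 28.9 and 17.95 CPM at D3, against 4.35 and 6.05 CPM at D1. They summed to 18.2 and 22.1 CPM at D10, against 4.58 and 3.6 CPM at D8.

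Within the 42 genes, 3 together took a smaller share of the reads with ML-792 than in control cells. Olfr814, Olfr985 and Olfr147 are the members with the most reads. Olfr985 took 4.73% of the members' summed mean CPM at D3 and 21.5% at D1, and 7.54% at D10 and 36.9% at D8. Olfr814 took 11.1% at D3 and 23.1% at D1, and 16.9% at D10 and 21.8% at D8. The share of Olfr147 rose instead, with 8.6% at D3 and 5.4% at D1, and 12.1% at D10 and 4.7% at D8. Without these 3 genes the sum was 80.4 and 43.7 CPM at D3, against 8.51 and 9.31 CPM at D1, a ratio of 6.96. At D10 the remaining 39 genes summed to 35.6 and 29.6 CPM, against 3.69 and 3.92 CPM at D8, a ratio of 8.56.

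**Figure D2:**
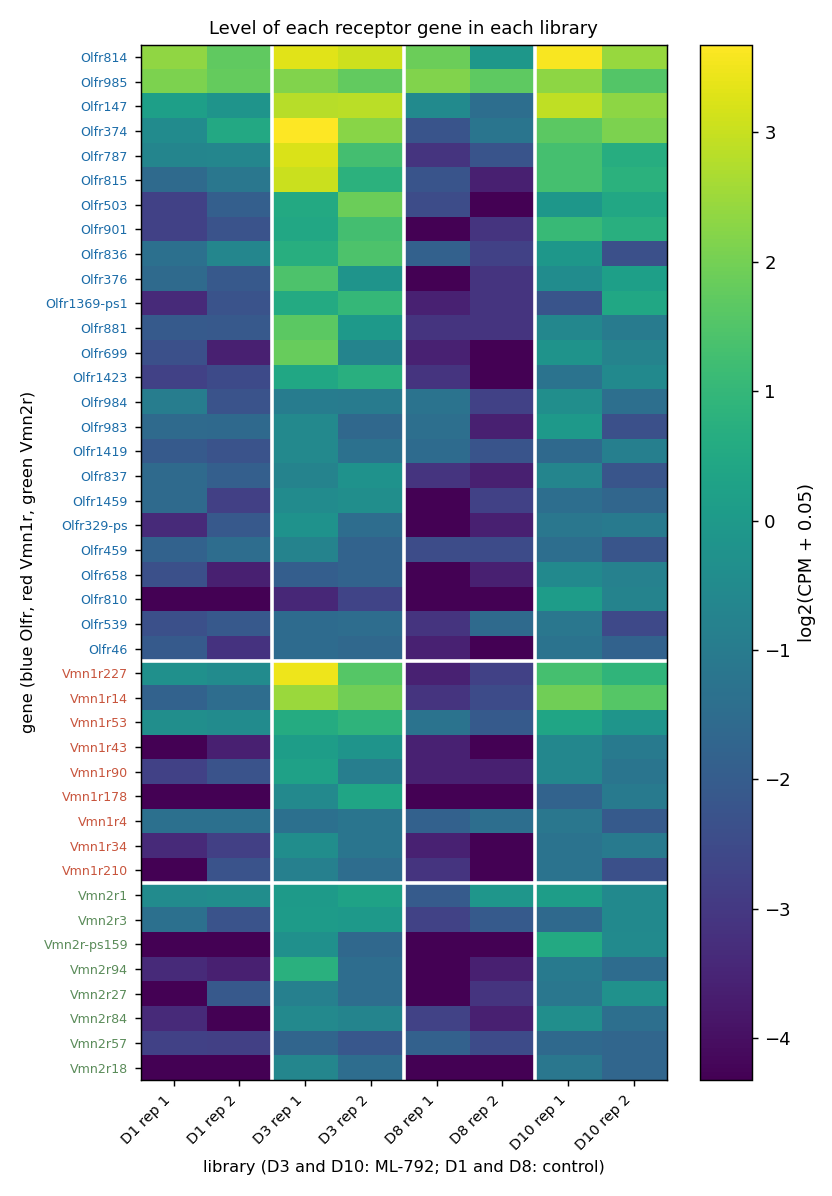
Level of each of the 42 receptor genes (rows, grouped by family) in each of the 8 libraries (columns, by day), as colour on the scale log2(CPM + 0.05). Most rows are bright in the D3 and D10 columns and dark in the D1 and D8 columns, while Olfr985 has 2.85 to 4.90 CPM in every library.

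Per gene, 38 of the 42 passed edgeR's filter on low counts and were tested. Olfr459, Olfr539, Vmn2r57 and Olfr46 did not pass. The filter asked for about 0.34 CPM in at least 2 libraries, and 29 of the tested members reached that level in fewer than 2 control libraries. Those 29 passed only through their ML-792 libraries, so the counts and medians below describe the genes and support nothing. In edgeR's quasi-likelihood test with Benjamini-Hochberg adjustment over 19173 genes, 21 members were higher at D3 than at D1 at an adjusted p under 0.05 and 0 were lower. Of all genes tested, 13.0% were called in that comparison, 7.92% higher and 5.10% lower. At D10 against D8, 25 members were higher and 0 lower, where 16.9% of all genes were called, 9.27% higher and 7.65% lower. DESeq2 called 19 members at D3 and 25 at D10, all higher, where it called 15.0% and 18.1% of all genes.

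The median log2 fold change of the tested members was 2.88 at D3 over D1 and 3.86 at D10 over D8, against -0.002 and 0.031 over all genes tested. With the 4 members that had no read in the control group set to their lower bound, the medians were 2.84 and 3.73. Both D3 libraries were above both D1 libraries for 34 of 38 tested members (32.8% of all tested genes), and both D10 libraries were above both D8 libraries for 31 (27.2%). The number called depended on single libraries. At D3 against D1 it was 2 members without D1 replicate 2, it was 3 when D1 replicate 1 was left out, and it was 7 when D3 replicate 1 was. The share of all tested genes called in these fits was 1.91%, 3.41% and 3.06%, against 13.0% with all libraries. At D10 against D8 it was 10 members without D8 replicate 2 and 16 without D10 replicate 1, where 8.99% and 6.94% of all genes were called, against 16.9%. In these fits 0 members were called lower in either exposure.

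Across the exposures, 20 members were called in both, 1 in the first only (Vmn2r94), 5 in the second only (Vmn1r53, Vmn2r27, Olfr329-ps, Olfr658 and Olfr810) and 12 in neither. Of all genes tested, 6.16% were called higher in both, 1.75% in the first alone, 3.10% in the second alone and 89.0% in neither. These lists were not tested against each other gene by gene except as the difference between responses below. With all 4 ML-792 libraries set against all 4 control libraries in a separate edgeR fit, 30 members were higher and 0 lower at an adjusted p under 0.05, where 28.7% of all genes were called, 15.3% higher and 13.4% lower. DESeq2 called 32 there, and 32.1% of the genes it gave an adjusted p. This fit shares its libraries with both exposures and is no independent result.

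**Figure D3:**
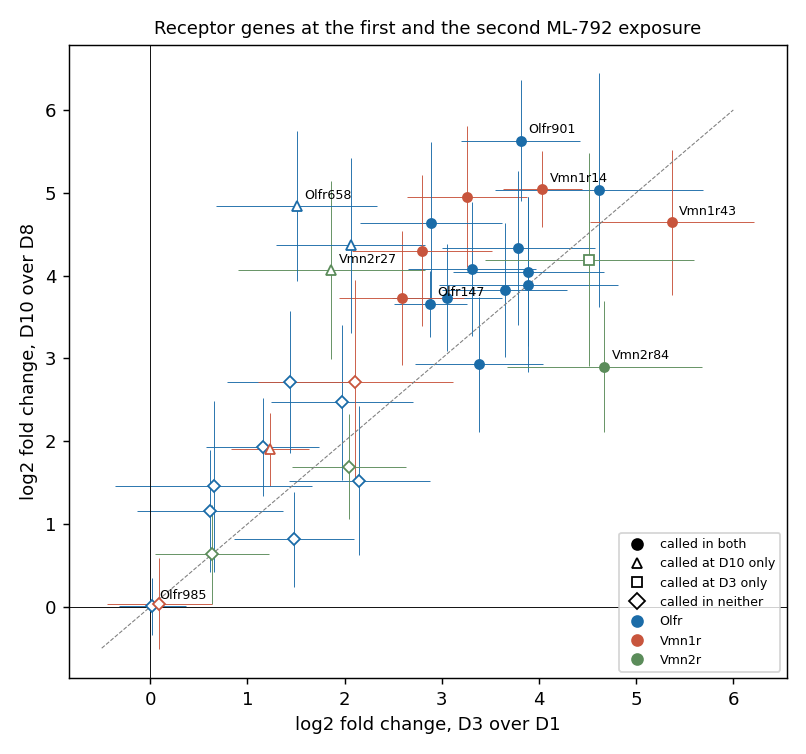
Log2 fold change at D10 over D8 (vertical axis) against that at D3 over D1 (horizontal axis) for 34 tested receptor genes, with SE bars, coloured by family, with the symbol showing where edgeR called the gene. The 4 genes with 0 reads in all control libraries are left out. Every point lies at or above 0 on both axes, from Olfr985 (0.02 and 0.01) to Vmn1r43 (5.37 and 4.65) and Olfr901 (3.81 and 5.63).

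Of the 22 tested Olfr genes, 11 were higher at D3 than at D1 and 14 were higher at D10 than at D8, and the 11 were among the 14. Of all genes tested, 7.92% and 9.27% were higher. Most of the 22 passed the low-count filter only through ML-792 libraries, so these counts describe the genes and support nothing. Olfr147 (ENSMUSG00000049098, chromosome 9 from 38401698 to 38407997 on mm10, plus strand) had 7.07 and 7.10 CPM at D3, against 1.10 and 0.838 CPM at D1. It had 7.53 and 4.94 CPM at D10, against 0.654 and 0.322 CPM at D8. Its ML-792 and control libraries did not overlap, and its log2 fold changes were 2.88 ± 0.38 (SE, edgeR adjusted p = 0.00369) and 3.66 ± 0.40 (adjusted p = 0.00144). It was called in both exposures also when any 1 of the 8 libraries was left out.

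Olfr901, 21.5 kb from Olfr147 on chromosome 9 (38429455 to 38432682), had 1.35 and 2.4 CPM at D3, against 0.0956 and 0.155 CPM at D1. It had 2.02 and 1.61 CPM at D10, against 0 and 0.0643 CPM at D8. The first response was 3.81 ± 0.61 (log2, SE, edgeR adjusted p = 0.00685). In the second, 118 reads at D10 stood against 2 at D8, a ratio of 54.5 with a 95% counting interval of 14.8 to 455.2 (exact binomial, counting error only), at an edgeR adjusted p of 0.00255. The second call held with any 1 library left out, and the first was lost without either D1 library (largest adjusted p = 0.0657).

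Olfr374 (chromosome 8 from 72107040 to 72118200), Olfr787 and Olfr815 had one library far above the rest. Olfr374 had 12.7 and 4.70 CPM at D3, against 0.669 and 1.37 CPM at D1, and 3.12 and 4.27 CPM at D10, against 0.163 and 0.386 CPM at D8. Olfr787 had 9.30 and 2.37 CPM at D3, against 0.573 and 0.590 CPM at D1, and 2.47 and 1.54 CPM at D10, against 0.0654 and 0.161 CPM at D8. For each, the ML-792 libraries were above the control libraries of the same exposure, and D3 replicate 1 was the highest of all. The log2 fold changes at D3 over D1 were 3.05 ± 0.56 for Olfr374 and 3.31 ± 0.66 for Olfr787 (SE, edgeR adjusted p = 0.011 and 0.0147). At D10 over D8 they were 3.73 ± 0.64 and 4.08 ± 0.81 (adjusted p = 0.00712 and 0.0122). Without D3 replicate 1 or either D1 library the first call of both was lost (largest adjusted p = 0.0814 and 0.115), and the second held in every such fit. Olfr374 shares exon bases with Gm24747 on the same strand, so its reads cannot be fully assigned.

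Olfr503 (chromosome 7 from 108544527 to 108545498) had the highest level per kilobase of the 42 genes at D3, at 2.58 CPM per kilobase. This level depends on its annotated length, which is a single exon of 972 bases. It had 1.39 and 3.62 CPM at D3, against 0.0956 and 0.217 CPM at D1. It had 0.891 and 1.35 CPM at D10, against 0.131 and 0 CPM at D8. Its log2 fold changes were 3.89 ± 0.78 (SE, edgeR adjusted p = 0.0147) and 4.04 ± 0.90 (adjusted p = 0.0182), both lost in some fits with 1 library left out (largest adjusted p = 0.0997 and 0.0686). Unlike the 3 genes above, it was higher in D3 replicate 2 than in replicate 1. Of the 50-base windows of its annotated transcripts, 29.6% also occur in transcripts of Olfr658 or Olfr659, so its reads may be shared with those genes.

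Other Olfr genes were called in the second exposure only, and the test of the difference between responses called none of them. Olfr810 (chromosome 10) had 0.0421 and 0.104 CPM at D3, from 4 reads, against 0 reads at D1. It had 1.01 and 0.546 CPM at D10, from 48 reads, against 0 reads at D8, which makes it at least 14.8-fold higher at D10 (against a floor of 3 reads for the group, edgeR adjusted p = 0.00905). Olfr811, on the same chromosome and just under the limit of 40 reads, had 2 and 1 reads at D3, against 0 and 0 at D1, and 15 and 19 reads at D10, against 0 and 0 at D8. Olfr658 had 0.210 and 0.244 CPM at D3, against 0.143 and 0.031 CPM at D1, and 0.648 and 0.522 CPM at D10, against 0 and 0.0322 CPM at D8. Its second response rested on 38 reads against 1, a ratio of 35.1 (95% counting interval 5.93 to 1422, edgeR adjusted p = 0.0098).

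Sequence around the annotated start was taken for members called in both exposures. Their RefSeq start had to lie within 100 bases of the GENCODE start, so that both sources place the start alike. An annotated start need not be the start of transcription. That of Olfr503, annotated as 1 exon of 972 bases, falls on an ATG, so its window may be sequence next to the coding region. RefSeq promoters (250 bases before to 50 after the start, GRCm38.p6) matched 33 of the 42 genes, and 4 genes met both conditions. They are printed 5′ to 3′ on the gene's strand, with a match to TAATTA in capitals. Olfr147 lies at chr9:38401461-38401760 on the plus strand, Olfr374 at chr8:72106790-72107089 on the plus strand, Olfr503 at chr7:108544277-108544576 on the plus strand and Vmn2r84 at chr10:130394192-130394491 on the minus strand.
Olfr147: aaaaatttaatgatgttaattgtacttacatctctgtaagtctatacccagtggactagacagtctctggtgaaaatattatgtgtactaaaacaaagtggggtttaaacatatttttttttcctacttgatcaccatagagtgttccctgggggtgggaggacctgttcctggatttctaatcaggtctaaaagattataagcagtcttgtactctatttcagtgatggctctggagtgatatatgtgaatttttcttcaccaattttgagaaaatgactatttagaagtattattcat
Olfr374: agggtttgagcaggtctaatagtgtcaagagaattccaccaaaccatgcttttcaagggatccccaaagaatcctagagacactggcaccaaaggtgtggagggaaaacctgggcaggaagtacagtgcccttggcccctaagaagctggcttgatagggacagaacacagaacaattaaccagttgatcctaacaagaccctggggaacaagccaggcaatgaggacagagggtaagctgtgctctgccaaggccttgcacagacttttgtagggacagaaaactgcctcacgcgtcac
Olfr503: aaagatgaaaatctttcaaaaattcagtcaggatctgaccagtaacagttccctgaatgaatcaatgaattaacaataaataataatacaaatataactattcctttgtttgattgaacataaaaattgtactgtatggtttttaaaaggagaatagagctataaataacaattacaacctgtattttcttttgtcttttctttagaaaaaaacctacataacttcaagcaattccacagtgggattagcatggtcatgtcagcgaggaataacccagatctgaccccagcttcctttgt
Vmn2r84: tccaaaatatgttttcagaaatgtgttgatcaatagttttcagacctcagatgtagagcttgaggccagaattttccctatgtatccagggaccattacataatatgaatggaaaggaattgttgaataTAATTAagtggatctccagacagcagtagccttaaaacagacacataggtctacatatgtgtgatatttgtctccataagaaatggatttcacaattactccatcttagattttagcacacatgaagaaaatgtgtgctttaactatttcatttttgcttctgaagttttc

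These windows are rich in A and T, as are receptor promoters in general. The 33 matched members had a median GC content of 36.7% and a median of 1 CpG per window. All 1272 receptor promoters of the RefSeq table had 35.7% and 1, and all 32851 promoters had 52.7% and 7. Olfr374 had the highest GC content of the 33, at 50.7%. TAATTA, the core bound by homeodomain proteins such as Lhx2, was searched on both strands and occurred in 5 of 33 windows (15.2%), in 16.6% of all receptor promoters and in 5.29% of all promoters. The motif of the Ebf factors of olfactory neurons, TCCC and GGGA with 2 bases between them, occurred in 0 of 33, in 0.393% of receptor promoters and in 0.904% of all promoters. The motif of Dux, a transcription factor of 2-cell embryos, TGATT and AATCA with 1 base between them, occurred in 0 of 33, in 0.157% of receptor promoters and in 0.0335% of all promoters. None of these 3 motifs contains another, and a match describes only these letters in this window. Of the 33 windows, 9 lie within 100 bases of the GENCODE start, and of the 5 with TAATTA only that of Vmn2r84 does, while those of Vmn1r14, Vmn2r3, Olfr984 and Olfr837 lie 611 to 12718 bases away.

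All 9 Vmn1r genes were tested, and 6 were higher at D3 than at D1 and 7 at D10 than at D8. Of all genes tested, 7.92% and 9.27% were higher. Only Vmn1r227 and Vmn1r53 of this family reached the filter level in at least 2 control libraries, so these counts describe the genes and support nothing. Vmn1r14 (ENSMUSG00000114982, chromosome 6 from 57231686 to 57240885) had 5.51 and 3.79 CPM at D3, against 0.239 and 0.310 CPM at D1. It had 3.77 and 2.94 CPM at D10, against 0.0654 and 0.129 CPM at D8. Its groups did not overlap in either exposure, and its replicates lay close together. The log2 fold changes were 4.03 ± 0.41 (SE, edgeR adjusted p = 0.0019) and 5.04 ± 0.46 (adjusted p = 0.000942), and it was called in both exposures with any 1 library left out.

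Vmn1r227 (chromosome 17 from 20729843 to 20739150) had 11 and 2.89 CPM at D3, against 0.764 and 0.683 CPM at D1. It had 2.47 and 1.83 CPM at D10, against 0.0327 and 0.0964 CPM at D8. D3 replicate 1 was again the highest library, and the D8 libraries were the lowest. Its log2 fold changes were 3.26 ± 0.62 (SE, edgeR adjusted p = 0.0123) and 4.95 ± 0.85 (adjusted p = 0.00711). The first call was lost without D3 replicate 1 or either D1 library (largest adjusted p = 0.11), and the second held in all 8 such fits.

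Vmn1r178 had no read in any control library, and 0.631 and 1.25 CPM at D3 and 0.243 and 0.427 CPM at D10. Against a floor of 3 reads for the group it was at least 17.2-fold higher at D3 than at D1 and at least 7.39-fold higher at D10 than at D8 (edgeR adjusted p = 0.0105 and 0.0222). Each call was lost in 2 of the 8 fits that leave out 1 library (largest adjusted p = 0.0787 and 0.0817). Vmn1r43 had 1.05 and 0.835 CPM at D3, against 0 and 0.031 CPM at D1, and 0.607 and 0.427 CPM at D10, against 0.0327 and 0 CPM at D8. It had 1 read in each control group, which gives ratios of 49.6 (95% counting interval 8.49 to 1998) at D3 and 30.5 (5.10 to 1240) at D10. Its exons overlap those of Vmn1r42 on the same strand, so the reads of these genes cannot be fully separated.

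Vmn1r53 and Vmn1r4 differed less between the groups. Vmn1r53, which had the highest level per kilobase of the Vmn1r genes in each group, had 1.47 and 1.81 CPM at D3, against 0.717 and 0.683 CPM at D1, and 1.26 and 0.855 CPM at D10, against 0.360 and 0.193 CPM at D8. Its log2 fold changes were 1.23 ± 0.40 (SE, edgeR adjusted p = 0.0784, and 0.0474 with offsets for exonic GC content in the fit) and 1.90 ± 0.44 (adjusted p = 0.0217, and 0.117 at most with 1 library left out). Vmn1r4 had 0.337 and 0.383 CPM at D3, against 0.335 and 0.341 CPM at D1, and 0.405 and 0.190 CPM at D10, against 0.229 and 0.322 CPM at D8, with overlapping groups in both exposures. Vmn1r90, called in both exposures, overlaps the exons of Nlrp5-ps on the same strand.

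The 8 Vmn2r genes summed to 6.35 and 4.07 CPM at D3, against 1.20 and 1.18 CPM at D1, and to 5.02 and 3.89 CPM at D10, against 0.621 and 1.32 CPM at D8. Of 7 tested, 4 were higher in each exposure, where 7.92% and 9.27% of all genes were, and 3 in both, where 6.16% were. Only Vmn2r1 of this family reached the filter level in at least 2 control libraries, so these counts describe the genes and support nothing. Vmn2r-ps159 and Vmn2r18 had no read in any control library. Vmn2r-ps159 had 0.757 and 0.278 CPM at D3 and 1.42 and 0.665 CPM at D10, at least 8.77-fold above D1 and at least 19.4-fold above D8 (edgeR adjusted p = 0.0329 and 0.0115). Its call at D3 was lost in 3 of 8 fits with 1 library left out (largest adjusted p = 0.161) and its call at D10 in none, and 46.7% of its 50-base windows occur in transcripts of other genes. Vmn2r18 was at least 7.76-fold higher at D3 than at D1 and at least 6.46-fold higher at D10 than at D8, with edgeR adjusted p = 0.0211 and 0.0215 and up to 0.129 and 0.0812 with 1 library left out.

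Vmn2r84 and Vmn2r1 differed in how they moved. Vmn2r84 had 0.631 and 0.557 CPM at D3, against 0.0478 and 0 CPM at D1, a ratio of 31.4 from 31 reads against 1 (95% counting interval 5.23 to 1279, edgeR adjusted p = 0.0188). It had 0.729 and 0.332 CPM at D10, against 0.0981 and 0.0322 CPM at D8, higher by 2.90 ± 0.79 on the log2 scale (SE, adjusted p = 0.0376). Both calls were lost in some fits with 1 library left out (largest adjusted p = 0.154 and 0.183). Vmn2r1, one of the receptors that many vomeronasal neurons express beside a second Vmn2r receptor, had 0.968 and 1.18 CPM at D3, against 0.669 and 0.714 CPM at D1, and 1.05 and 0.641 CPM at D10, against 0.196 and 0.868 CPM at D8. Its D10 and D8 libraries overlapped and its log2 fold changes were 0.63 ± 0.59 and 0.64 ± 0.60 (SE, edgeR adjusted p = 0.535 and 0.511).

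Olfr985 (chromosome 9 from 40126308 to 40130184) and Olfr814 (chromosome 10 from 129871473 to 129879851) were the members with the highest CPM in control cells. Olfr985 had 4.46 and 3.31 CPM at D3, against 4.25 and 3.41 CPM at D1, and 4.90 and 2.85 CPM at D10, against 4.45 and 3.22 CPM at D8. Its groups overlapped in both exposures, and its log2 fold changes were 0.02 ± 0.34 and 0.01 ± 0.34 (SE, edgeR adjusted p = 0.978 and 0.993), with a sign that changed between settings. None of its 50-base windows occur in transcripts of other annotated genes. Its neighbours Olfr984 and Olfr983 also had overlapping groups in both exposures. Olfr814 had 9.84 and 8.42 CPM at D3, against 5.02 and 3.23 CPM at D1, and 12.0 and 5.37 CPM at D10, against 3.63 and 0.900 CPM at D8. Its libraries did not overlap in either exposure, but its log2 fold changes of 1.16 ± 0.58 and 1.93 ± 0.60 (SE) were not called (edgeR adjusted p = 0.234 and 0.0573). Without the low-count filter both were called (adjusted p = 0.00485 and 2.04e-07), and the D10 change was also called with DESeq2 (adjusted p = 0.00318) and with GC offsets in edgeR (adjusted p = 0.0146).

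Olfr814 and Olfr815 are neighbours on chromosome 10 that share 33.5% and 44.5% of their 50-base windows, so their reads may be divided between them. Olfr815 had 8.20 and 1.70 CPM at D3, against 0.287 and 0.403 CPM at D1. It had 2.47 and 1.66 CPM at D10, against 0.163 and 0.0322 CPM at D8. Its log2 fold changes were 3.79 ± 0.79 (SE, edgeR adjusted p = 0.0173, and up to 0.116 with 1 library left out) and 4.34 ± 0.93 (adjusted p = 0.0163, and up to 0.0816). Among the 28 members with under 10% of shared windows, a limit set here, 27 were tested. Of these, 14 were called at D3 and 17 at D10, all of them higher, where 7.92% and 9.27% of all genes were called higher. Most of the 27 passed the low-count filter only through their ML-792 libraries, so these counts describe the genes and support nothing.

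Levels per kilobase stayed low throughout. The median member had 0.163 CPM per kilobase at D3 and 0.0332 at D1, and 0.123 at D10 and 0.0119 at D8. More than 1 CPM per kilobase was reached by 8 members at D3 and 2 at D1, and by 4 at D10 and 1 at D8. The highest were Olfr503 at D3 (2.58 CPM per kilobase), Olfr985 at D1 (2.04), Olfr814 at D10 (2.28) and Olfr985 at D8 (2.04).

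The libraries of D8, taken between the exposures, held fewer receptor reads than those of D1. The sum of 10.39 ± 2.87 CPM at D8 compares with 17.8 ± 1.47 CPM at D1 (SD, n = 2 each), a ratio of 0.583. The D8 sums were 12.4 CPM in replicate 1 and 8.36 CPM in replicate 2, the library that stood apart in base composition. The part of base composition in this difference was not tested. Of 38 tested members, both D8 libraries were below both D1 libraries for 17 (20.3% of all tested genes) and above them for 0 (21.6%). No member was called by edgeR, where 0.177% of all genes were called, and the smallest adjusted p was 0.232. At an unadjusted p under 0.05 there were 7 members, all lower at D8 (12.1% of all genes): Olfr374, Olfr147, Vmn1r53, Vmn1r227, Olfr787, Olfr837 and Vmn1r14. DESeq2 called 1 member, Vmn1r227, lower (-3.49 on the log2 scale, adjusted p = 0.0132), where it called 2.71% of the 15827 genes with an adjusted p, and it gave none for 21 members. D8 shares its libraries with the second exposure and D1 with the first, so these values are no separate evidence on either.

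The size of the responses in the second and the first exposure was compared in the same fit. The fold change was larger in the second for 27 of 38 tested members and smaller for 11. None was called by edgeR, which called 0 of all genes. An unadjusted p under 0.05 was reached by 1 member, Olfr658, whose response was larger in the second exposure by 3.33 ± 1.41 on the log2 scale (SE, edgeR adjusted p = 1), and by 1.54% of all genes in that direction. DESeq2 called 0 members and 0.0156% of all genes. A difference between the exposures was thus not detectable per gene with 2 libraries a group.

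The D3 replicates differed in part of the receptor genes. They also differed in markers of the 2-cell-like state, in which ES cells transiently express genes of the early embryo. All 11 measured 2-cell-like markers, among them Zscan4c, Duxf3 and Zfp352, were called higher in both exposures, where 6.16% of all genes were. They summed to 2769 and 857.3 CPM in D3 replicates 1 and 2, against 96.5 and 49.3 CPM in the D1 libraries, and to 600.8 and 620.2 CPM at D10, against 7.55 and 14.5 CPM at D8. At D3, replicate 1 was 1.73 to 3.78 times replicate 2 for these markers (median 2.72) and 0.384 to 6.27 times for the receptor genes (median 1.30). It was over 2 times as high for 10 of 11 markers and for 13 of 42 receptor genes, among them Olfr374, Vmn1r227, Olfr787 and Olfr815. At D10 the ratio was 0.413 to 1.12 for the markers (median 0.642) and 0.124 to 6.54 for the receptor genes (median 1.48). The part of 2-cell-like cells in the receptor signal was not tested.

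**Figure D4:**
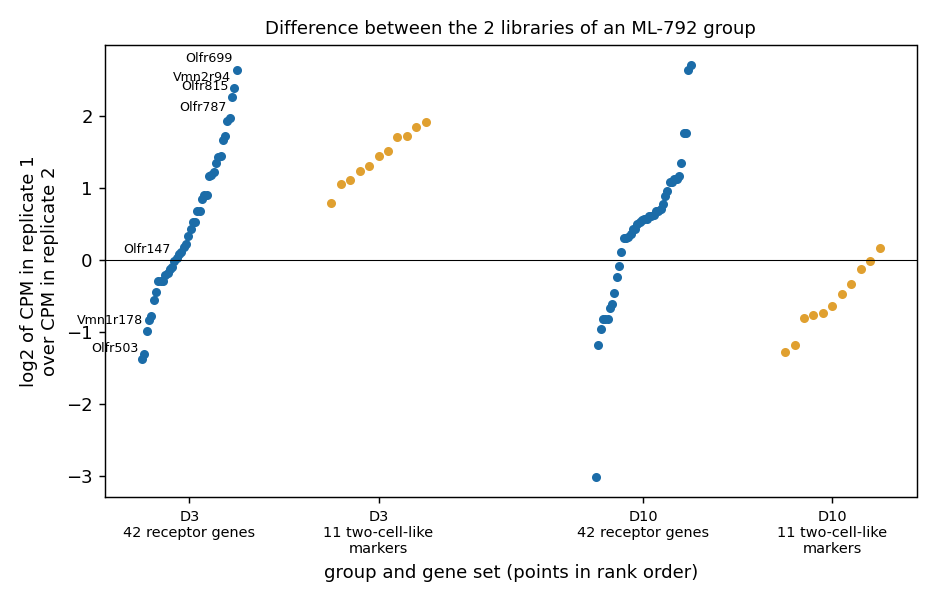
Ratio of replicate 1 to replicate 2 on a log2 axis, at D3 and at D10, for each of the 42 receptor genes and 11 markers of the 2-cell-like state, 1 point a gene. At D3 the markers lie between 1.73 and 3.78 and the receptor genes between 0.384 and 6.27, and at D10 the markers lie at 1.12 or below.

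Markers of mature olfactory neurons were mixed. Of 12, 7 had a mean under 1 CPM in every group, Ano2 among them. The median receptor gene was also under 1 CPM, at 0.943 at D3 and 0.531 at D10. Of the 6 tested, 1 was higher at D3 than at D1 (Gnal), where 7.92% of all genes were. At D10 against D8, 2 were higher (Gnal and Ano2), where 9.27% of all genes were. None was lower in either exposure. In the fit of all ML-792 against all control libraries, 3 were higher and 1 was lower, where 15.3% and 13.4% of all genes were. The lower one was Gng13, by 1.71 ± 0.39 on the log2 scale (SE, edgeR adjusted p = 0.00844). Over all 8 libraries the channel subunit Cnga2 had 1 read, and so had Stoml3 and the receptor transporter Rtp1. Omp, the classical marker, had 0.757 and 0.418 CPM at D3, against 1.24 and 1.40 CPM at D1, and 0.567 and 0.712 CPM at D10, against 0.850 and 0.772 CPM at D8. The list summed to 35.5 and 44.1 CPM at D3, against 26.7 and 32.8 CPM at D1. It summed to 44.1 and 52.6 CPM at D10, against 26.8 and 35.1 CPM at D8. Most of each sum was Adcy3 alone, with 26.5 and 33.6 CPM at D3, against 20.1 and 24.9 CPM at D1. Adcy3 had 35.0 and 41.4 CPM at D10, against 19.8 and 28.3 CPM at D8. Of 9 testis markers 8 were in the table, 1 was tested, and the list summed to 0.505 and 0.557 CPM at D3, against 1.29 and 1.68 CPM at D1, and to 0.445 and 0.641 CPM at D10, against 0.915 and 2.19 CPM at D8.

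Among immature olfactory neuron and progenitor markers, 10 of 15 were tested, and 2 were higher (Ebf2 and Sox11) and 2 lower (Gap43 and Tubb3) in each exposure. Over all genes tested, 7.92% were called higher and 5.10% lower at D3, and 9.27% higher and 7.65% lower at D10. The list of immature markers summed to 370.5 and 393.1 CPM at D3, against 380.7 and 363.2 CPM at D1. It summed to 345.7 and 325.6 CPM at D10, against 361.1 and 369.7 CPM at D8. Most of each sum was Stmn2 alone, with 244.3 and 270.7 CPM at D3, against 237.9 and 237.3 CPM at D1. Stmn2 had 225.8 and 218 CPM at D10, against 246 and 260.3 CPM at D8. Of 8 vomeronasal neuron markers 7 were in the table and 6 were tested, of which 2 were higher at D3 than at D1 and 1 at D10 than at D8. They summed to 104 and 116.8 CPM at D3, against 81.8 and 98.7 CPM at D1. The sums were 111.3 and 125.2 CPM at D10, against 113 and 158 CPM at D8. Most of each sum was Gnai2 alone, with 96.8 and 107.3 CPM at D3, against 76.7 and 92.2 CPM at D1. Gnai2 had 101.8 and 116.3 CPM at D10, against 108.5 and 153.6 CPM at D8. Trpc2 was not analysed here.

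Of 12 tested genes of olfactory signal transduction, which works downstream of the receptors, 1 was higher at D3. This is near the share of all genes, 7.92%. At D10, 3 were higher and 1 lower, where 9.27% and 7.65% of all genes were. Only Gnal was called in both exposures. Gnal, the G protein alpha subunit that couples odorant receptors to adenylyl cyclase, had 4.29 and 6.09 CPM at D3, against 1.24 and 1.74 CPM at D1, and 5.34 and 7.29 CPM at D10, against 1.99 and 1.64 CPM at D8. Its log2 fold changes were 1.79 ± 0.33 (SE, edgeR adjusted p = 0.0105, and up to 0.08 with 1 library left out) and 1.80 ± 0.32 (adjusted p = 0.00777). At D10, Ano2, a chloride channel of olfactory cilia, had 30 reads against 3 at D8, a ratio of 9.23 (95% counting interval 2.87 to 47.3, edgeR adjusted p = 0.0222, and up to 0.109 with 1 library left out). Slc12a2, a chloride importer with wide expression, was higher at D10 than at D8 by 0.76 ± 0.18 (log2, SE, adjusted p = 0.0205, up to 0.104) and Pde4a, a cAMP phosphodiesterase, was lower by 1.10 ± 0.32 (adjusted p = 0.0491, up to 0.233).

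Of 8 tested genes of vomeronasal signalling, 2 were higher at D3, where 7.92% of all genes were. At D10, 2 were higher and 1 lower, where 9.27% and 7.65% of all genes were. Gnao1 had 3.11 and 2.75 CPM at D3, against 1.24 and 1.02 CPM at D1, a log2 fold change of 1.38 ± 0.28 (SE, edgeR adjusted p = 0.0169, up to 0.138 with 1 library left out). Tfap2e, a transcription factor of Vmn2r-expressing neurons, had 0.463 and 0.870 CPM at D3, against 0.0956 and 0.217 CPM at D1, and 1.46 and 1.40 CPM at D10, against 0.196 and 0.193 CPM at D8. Its changes were 2.00 ± 0.55 (SE, adjusted p = 0.0456, up to 0.279) and 2.85 ± 0.49 (adjusted p = 0.00728). The calcium channel gene Itpr3 was lower at D10 than at D8 by 0.62 ± 0.14 on the log2 scale (SE, adjusted p = 0.0209, and 0.153 without D10 replicate 1).

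Of 25 tested regulators of receptor gene choice, many of them heterochromatin factors, 2 were higher in each exposure and 1 was lower at D10. These counts lie near or below the shares over all genes, 7.92% higher at D3, and 9.27% higher and 7.65% lower at D10. Atf7ip, a partner of the histone methyltransferase Setdb1, had 215.5 and 230.5 CPM at D3, against 50.8 and 68.8 CPM at D1, and 280 and 236.1 CPM at D10, against 63.0 and 67.5 CPM at D8. Its log2 fold changes were 1.90 ± 0.17 (SE, edgeR adjusted p = 0.00144) and 1.98 ± 0.17 (adjusted p = 0.000816), and both held with any 1 library left out. Ebf2, a transcription factor of the family that binds receptor promoters in olfactory neurons, had 0.841 and 1.08 CPM at D3 and no read at D1, at least 17.2-fold higher (edgeR adjusted p = 0.0066, and 0.0599 without D1 replicate 2). It had 0.850 and 0.712 CPM at D10, against 0.163 and 0.0322 CPM at D8, higher by 2.94 ± 0.65 on the log2 scale (SE, adjusted p = 0.0214, up to 0.0904).

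Other lists gave few calls. The pluripotency-linked zinc finger gene Zfp42 was lower at D10 than at D8 by 0.59 ± 0.16 on the log2 scale (SE, edgeR adjusted p = 0.0384, up to 0.17 with 1 library left out). Of 3 tested genes of receptor export, Reep1 was lower at D3 than at D1 by 0.80 ± 0.21 (adjusted p = 0.0391, up to 0.25), and none was called at D10. Other chemoreceptor families were searched by symbol start (Taar, Tas1r, Tas2r, Fpr, Ms4a and Gucy2d). Of these, 34 genes were in the table, 30 had a mean under 1 CPM in every group and 7 were tested. Ms4a10, Ms4a4d and Ms4a6d were higher at D3, and Ms4a4d and Ms4a6d at D10, where 7.92% and 9.27% of all genes were. At D3 the call of Ms4a10 was lost in 6 of 8 fits with 1 library left out (edgeR adjusted p up to 0.286) and that of Ms4a6d in 4 (up to 0.178). Ms4a4d had 2.86 and 2.47 CPM at D3, against 0.526 and 0.248 CPM at D1, and 2.96 and 3.59 CPM at D10, against 0.229 and 0.257 CPM at D8. Its changes were 2.83 ± 0.41 (SE, adjusted p = 0.00465, and 0.0538 without D1 replicate 2) and 3.73 ± 0.41 (adjusted p = 0.00157). Ms4a genes also include many that are expressed in immune cells.

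The members lie on 12 chromosomes. Chromosomes 7 and 9 hold 8 each, chromosome 6 holds 7 and chromosome 10 holds 5, while chromosome 2, with 62 coding receptor genes in the table, holds none. Another member lies within 500 kb of 23 of the 42. The nearest tested gene that is no receptor lies at a median of 98.7 kb. That neighbour was called higher for 11 members at D3 and for 8 at D10, and lower for 0 and 1. These were 8 distinct genes higher at D3 and 8 at D10, of 33 distinct neighbours, where 7.92% and 9.27% of all genes were called higher. Of the 20 members called in both exposures, 13 had a neighbour called in neither and 2 had one called higher in both, namely Olfr503, 15.45 kb from Gm5053, and Vmn1r90, which overlaps Nlrp5-ps.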

How the data were processed

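RNA of 8 libraries, 2 in each of 4 groups, was measured by RNA sequencing. The labels name polyA RNA as the molecule, while the protocol text depletes ribosomal RNA from total RNA and keeps the strand. The authors deposited raw counts, whole numbers of reads per Ensembl gene. Per the submitters' processing notes, bcl2fastq 2.17.1.14, STAR 2.5.0a and featureCounts were used, with the mouse build mm10. Not given in the sources used here: the version and annotation of featureCounts, its strand setting and its handling of multimapped reads. Genes with overlapping exons or near-identical relatives are therefore less certain.

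Symbols, biotypes, exons and coordinates came from GENCODE M21 by Ensembl ID, and 36901 of 36920 IDs matched. The members and gene lists were chosen with earlier results of these data known. edgeR 4.0.16 in R 4.3.3 was run on all genes kept by filterByExpr (minimum count 10), with TMM factors, 1 quasi-likelihood fit of the 4 groups (4 residual degrees of freedom, biological coefficient of variation 19.6%) and a separate fit of treatment alone. Benjamini-Hochberg adjustment of the 2-sided p-values ran over 19173 genes, and a call means an adjusted p under 0.05. The SE is the log2 fold change divided by the square root of F. Where a control group had 0 reads, the fold was bounded with 3 reads over the group. Reads carry no molecular identifiers, so intervals and bounds cover counting error only. The share of 50-base windows found in other genes' transcripts was computed from GENCODE M21 transcripts alone.

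Genes were named by a rule: the 12 members with the highest level per kilobase, up to 12 called members per exposure with the smallest p, the 2 genes on either side of the read limit, and up to 4 called genes from each list. Other members named were chosen after their values were seen. Alternatives were DESeq2 1.42.0, its size factors within edgeR, no filter, a minimum count of 30, GC offsets, a replicate block, and leaving out each library. Protein sequences were not used here.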

Additional observations from a re-analysis of the deposited data

Results flagged for a closer look

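Dixon's criterion was applied to named members and to the summed CPM, within the 4 ML-792 libraries and within the 4 control libraries. In 4 of these 39 tests, 1 library lay far from the other 3. Each was a test over the ML-792 libraries, and the library was D3 replicate 1. Chance alone gives about 1 in 20 such tests. Olfr815 had 8.2 CPM there and 1.66 to 2.47 CPM in the others. Olfr787 had 9.3 CPM and 1.54 to 2.47 CPM in the others. Olfr374 had 12.7 CPM and 3.12 to 4.7 CPM in the others. Vmn1r227 had 11 CPM and 1.83 to 2.89 CPM in the others. The summed 2-cell-like markers were also highest in that library, at 2769 CPM, against 600.8 to 857.3 CPM in the other ML-792 libraries, and their part in these values was not tested. The D3 calls of all 4 genes were lost without it, while their D10 calls do not include it except through the shared estimate of spread.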

How the results depend on the processing

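The counts of called members (21 at D3 against D1, 25 at D10 against D8, 30 for ML-792 against control) changed by over 1.5 times under the stricter low-count filter, to 11, 12 and 13, since it tested 16 members. Without a filter they were 26, 30 and 33, with DESeq2 19, 25 and 32, and with GC offsets 22, 24 and 30. DESeq2 called 15.0%, 18.1% and 32.1% of all genes with an adjusted p, against 13.0%, 16.9% and 28.7% in the main fits. That share also moved between other settings and with 1 library left out. The counts are therefore not comparable without it. Leaving out 1 library gave 2 to 22 members at D3 against D1, 10 to 23 at D10 against D8 and 26 to 32 for ML-792 against control. For D8 against D1 the count of 0 became 1 with DESeq2 (Vmn1r227) and 3 without a filter (Olfr374, Vmn1r227 and Olfr787), and 0 with any library left out, as for the difference between responses. The summed CPM at D1 became 14.97 with members of at least 100 reads.

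Samples with the same replicate number shared deviations (correlations of 0.101 to 0.498 between groups), but with 2 numbers this is not a pairing by design. With the replicate block 25 members were called at D3 against D1, 28 at D10 against D8, 0 at D8 against D1, 0 for the difference between responses and 30 for ML-792 against control. In the first 2 of these, 21.8% and 27.6% of all genes were called, against 13.0% and 16.9% without the block. Olfr814 was then called at D3 against D1 and at D10 against D8 (edgeR adjusted p = 0.0316 and 0.00303), and Vmn1r53 at D3 against D1 (0.0462). With the replicate block and GC offsets these were 24, 27, 0, 0 and 28. 

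Olfr985, near 0 in the main fits, changed sign in some settings. At D3 against D1 it was -0.105 with GC offsets, -0.111 with block and GC offsets, and -0.222 to 0.203 with 1 library left out. At D10 against D8 it was -0.005 without a filter, -0.378 with GC offsets, -0.012 with the block, -0.385 with block and GC offsets, and -0.419 to 0.321 with 1 library left out. The cause was not tested. Vmn1r4 was -0.076 at D3 and -0.431 at D10 with GC offsets, and Olfr836, Olfr983, Olfr984 and Vmn2r1 also turned negative with some library left out. None of these 6 was called in either exposure, and no other tested member changed sign under the settings tried.

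Depth limits the genes with 0 to 3 control reads, whose ratios have wide intervals. With 2 libraries a group, differences between exposures and between D8 and D1 rest on few degrees of freedom.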
